A study of Danio rerio with 11 samples.

Results

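The genes of the constitutive proteasome, its assembly chaperones and its inhibitor PI31 were examined in RNA-seq of sorted zebrafish melanoma cells and melanocytes. Members were taken by name: every gene whose symbol starts with *psma*, *psmb*, *psmc*, *psmd*, *psmf* or *psmg* and a digit, leaving out the interferon-induced *psmb8a*, *psmb9a*, *psmb12* and *psmb13a*. Of 24441 genes in the table, 45 had such a name and 41 remained. They comprised 8 alpha and 9 beta genes of the 20S core, 7 ATPase and 10 non-ATPase genes of the 19S regulatory particle, 5 assembly chaperones, *psmf1* (PI31) and *psmc3ip*. No gene was listed under the symbols *psma1*, *psma7*, *psmd2*, *psmd7*, *psmg3* or *psmg4*. Counts by role below are therefore of the genes listed, copies included, and not of complete sets of subunits. The name also brought in 3 genes that are not constitutive subunits. *psmc3ip* encodes a partner of meiotic recombination factors, *psmb10* is the counterpart of a mammalian immunoproteasome subunit, and *psmb11b* belongs to the family of the mammalian thymus-specific beta subunit.

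Melanoma cells (MA) were GFP-positive cells sorted from 5 tumors of 3 adult fish with the genotype BRAFV600E/p53lf/lf/crestin:EGFP, of which 1 fish gave MA3A, MA3B and MA3C. Melanocytes were mCherry-positive cells sorted from adult skin. MC_Het melanocytes came from 3 fish labelled BRAFV600E/+/p53+/lf/mitfa+/-/mitfa:mCherry, and MC_WT melanocytes from 3 fish labelled mitfa:mCherry on the wild-type AB* background. The *mitfa* promoter drives mCherry in both melanocyte groups from a vector that also carries a *mitfa* minigene, and the *crestin* promoter drives EGFP in the tumors. Genotype, sorting marker and tissue therefore change together between melanoma and melanocytes and cannot be told apart in that comparison.

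The proteasome degrades proteins tagged with ubiquitin. Its 20S core is a barrel in which outer rings of alpha subunits gate the entrance and inner rings of beta subunits carry the protease sites, formed by the beta subunits encoded by *PSMB6* (caspase-like), *PSMB7* (trypsin-like) and *PSMB5* (chymotrypsin-like) in mammals. The 19S particle caps the barrel: its ring of ATPases unfolds substrates, and its non-ATPase subunits form the lid, bind ubiquitin and remove it. Dedicated chaperones assist assembly of the ring of alpha subunits and of the 19S base, and transcription of the subunit genes is raised jointly by NRF1, encoded by *NFE2L1*, when proteasome capacity is short in mammalian cells.

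Libraries held between 14718024 and 22612463 reads, recovered from the deposited counts per 1e6 reads (CPM). Rescaling by the median of ratios divided these CPM by factors of 1.19 to 1.36 in MA and 0.685 to 0.889 in melanocytes. Without this step MA and melanocytes differed by a median log2 fold change over all genes of 0.58 in place of 0.04, so every direction below is relative to the rescaling. All 6 pigment cell markers examined were higher in MA than in melanocytes (limma adjusted p under 0.05, as for all lists here), and their summed level was 3421 to 10534 rescaled CPM in MA, 1272 to 5134 in MC_Het and 452 to 988 in MC_WT. Markers of other skin cells ran the other way. All 5 keratinocyte markers were lower in MA, with sums of 107 to 418 rescaled CPM in MA, 34074 to 78975 in MC_Het and 52198 to 91514 in MC_WT. All 6 leukocyte markers were lower, with sums of 80.9 to 908 in MA, 4848 to 6662 in MC_Het and 5290 to 7719 in MC_WT. Of the other lists, 4 of 4 fibroblast, 2 of 3 muscle and 2 of 5 erythrocyte genes were lower in MA. Of 7 dissociation stress genes 4 were lower and 1 was higher, and 4 of 5 proliferation genes were higher. Among all genes tested 27.7% were lower in MA and 23.8% were higher. Proliferation markers summed to 373 to 706 rescaled CPM in MA, 88.9 to 191 in MC_Het and 99.2 to 251 in MC_WT. No marker of these lists was at 0 in all samples of a group. The part of these cells and of proliferation in the differences below was not tested.

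Proteasome genes were expressed at higher levels in melanoma cells than in melanocytes. Of the 40 members that could be tested, 28 (70.0%) were higher in MA and 1 was lower at an adjusted p under 0.05, whereas 23.8% of all 14706 genes tested were higher and 27.7% lower (limma, Benjamini-Hochberg). The median log2 fold change was 0.94 over the members, against 0.04 over all genes tested, and ran between −1.42 for *psma6l* and 2.40 for *psmd3*. In 22 members every tumor was above every melanocyte sample, and 12.5% of all genes did so. Leaving out *psmc3ip*, *psmb10* and *psmb11b*, a choice made after their values were seen, left 28 of 38 higher and a median of 0.97. With a stricter threshold (adjusted p under 1e-6 and log2 fold change over 1), 1 member (*psmd3*) was higher, where 0.544% of all genes were. Together the 41 genes took 0.595% to 1.02% of the reads of an MA library, 0.199% to 0.256% in MC_Het and 0.233% to 0.278% in MC_WT. These shares do not depend on the rescaling. They therefore include the shift of all genes in the CPM as deposited, a median log2 fold change of 0.58. In sorted bulk samples, more RNA of a gene per cell and a different mixture of cells cannot be told apart.

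**Figure D1:**
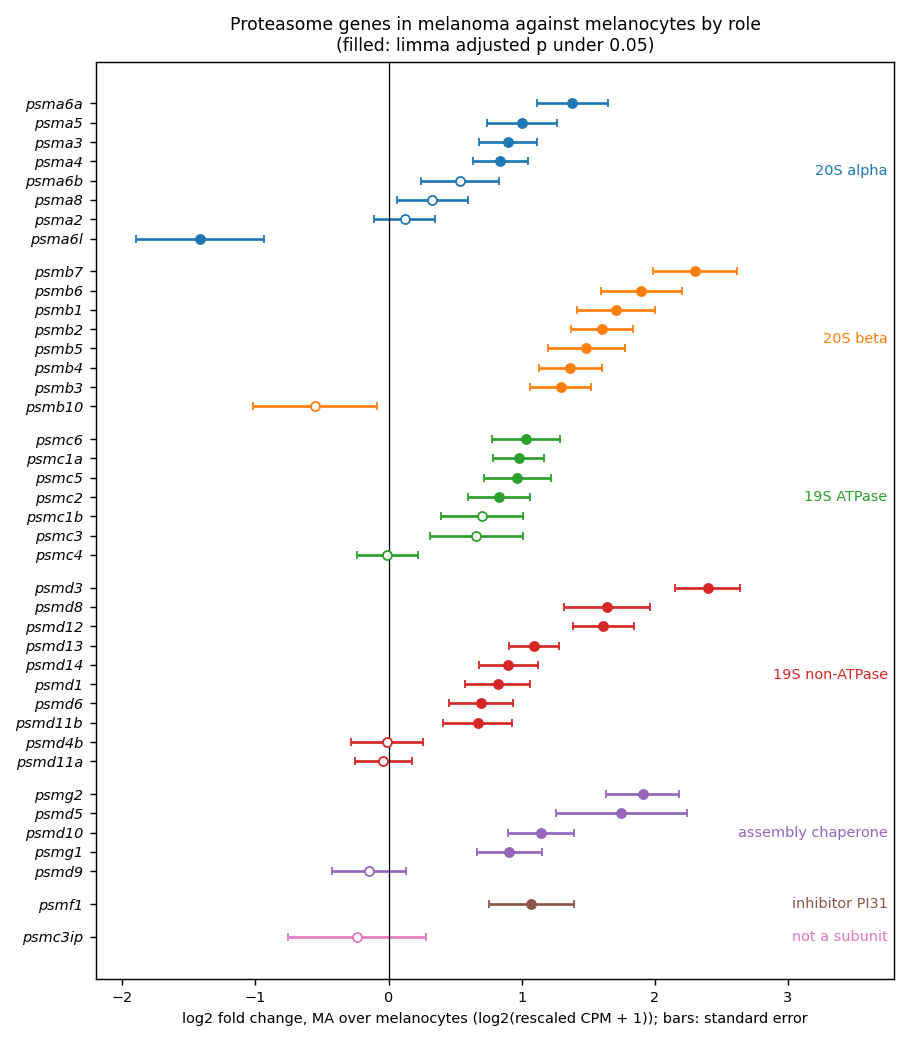
Log2 fold change of MA over melanocytes for the 40 tested members on the log2(rescaled CPM + 1) scale, grouped by role from top to bottom, with standard errors as bars and filled points where the limma adjusted p was under 0.05. The 7 constitutive beta subunits lie between 1.29 and 2.30, to the right of all ATPases, and only *psma6l*, at −1.42, is filled left of 0.

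**Figure D2:**
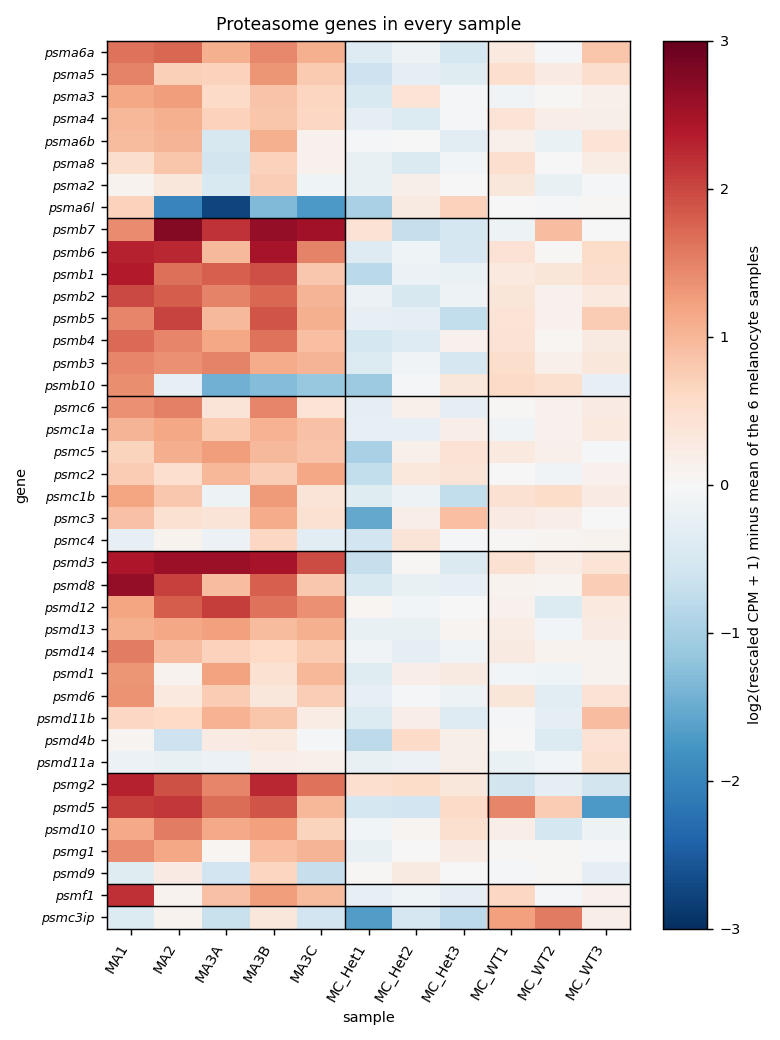
Level of each tested member (rows, by role) in each of 11 samples (columns, MA, then MC_Het, then MC_WT), as log2(rescaled CPM + 1) minus the mean of the 6 melanocyte samples, red for higher and blue for lower. The rows of the 7 constitutive beta subunits are red across all 5 tumors, while *psma6l* and *psmb10* are red in MA1 and blue in MA3A, MA3B and MA3C.

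The beta ring showed this difference in all of its constitutive members: *psmb1* to *psmb7* were each higher in MA (7 of 7, 23.8% of all genes). Their median log2 fold change was 1.60, with no overlap between tumors and melanocytes (12.5% of all genes). With *psmb10* counted in, 7 of 8 tested beta genes were higher and the median was 1.54. *psmb7* (ENSDARG00000037962), the trypsin-like subunit, had the largest change of the ring. Its level was 110, 282, 185, 260 and 239 rescaled CPM in MA1, MA2, MA3A, MA3B and MA3C, against 55.2, 24.9 and 27.8 in MC_Het1 to MC_Het3 and 36.8, 77.8 and 41.0 in MC_WT1 to MC_WT3. MA1 was the lowest tumor and still above MC_WT2, the highest melanocyte sample. The log2 fold change was 2.30 (standard error 0.32, limma adjusted p = 2.3e-05).

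*psmb6* (ENSDARG00000002240), which carries the caspase-like site, measured 211, 206, 82.9, 236 and 119 rescaled CPM in the 5 tumors in the same order, 31.7, 37.9 and 29.2 in MC_Het and 57.1, 43.1 and 62.1 in MC_WT. The tumors of fish MA3 spanned the whole range of the melanoma samples, with MA3A lowest and MA3B highest, and none reached down to the melanocytes. The log2 fold change was 1.90 (standard error 0.30, limma adjusted p = 9e-05). *psmb5* (ENSDARG00000075445), the chymotrypsin-like subunit that proteasome inhibitors used as drugs bind, measured 135, 198, 95.7, 181 and 102 rescaled CPM in the tumors, 40.6, 39.1 and 28.4 in MC_Het and 64.1, 52.4 and 81.7 in MC_WT. MA3A and MA3C came closest to the melanocytes, at 95.7 and 102 against 81.7 in MC_WT3. Its log2 fold change was 1.49 (standard error 0.29, limma adjusted p = 0.00057).

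The structural beta subunits gave similar sizes. *psmb1* had the highest level per length of the 20S core in melanoma and averaged 385 ± 137 rescaled CPM in MA (SD, n = 5) and 116 ± 36.0 in melanocytes (SD, n = 6), a log2 fold change of 1.71. *psmb2* averaged 224 ± 53.2 in MA and 72.8 ± 16.2 in melanocytes (1.60 on the log2 scale). The log2 fold changes of *psmb4* and *psmb3* were 1.37 and 1.29, the smallest of the ring.

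**Figure D3:**
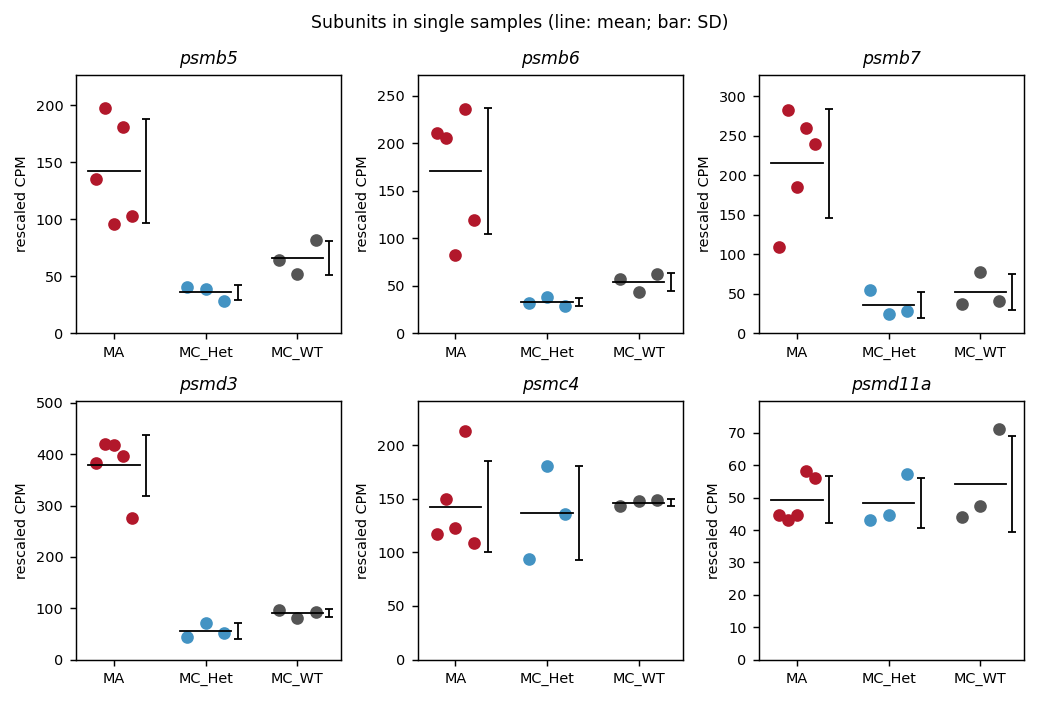
Rescaled CPM (y axes from 0) of the protease subunits *psmb5*, *psmb6* and *psmb7*, of *psmd3*, and of *psmc4* and *psmd11a* in each sample of MA, MC_Het and MC_WT, with the group mean as a line and its SD as a bar. The tumors stand apart from all melanocytes in the first 4 panels. They lie among the melanocytes in the panel of *psmd11a* and overlap with them in that of *psmc4*, where MA3B is the highest sample.

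The alpha ring was mixed. Of 8 alpha genes 4 were higher in MA (23.8% of all genes), 1 was lower (27.7%) and 3 were not called. Their median log2 fold change was 0.69. Without *psma6l*, 4 of 7 were higher and none was lower, with a median of 0.84. *psma6a* (ENSDARG00000019398) had the largest change, with 94.1, 100.1, 63.3, 83.2 and 63.5 rescaled CPM in the 5 tumors, 22.6, 26.6 and 20.5 in MC_Het and 36.6, 28.9 and 53.6 in MC_WT. All tumors were above all melanocytes, and the 3 MC_Het samples were the lowest of all (log2 fold change 1.38, standard error 0.27, limma adjusted p = 0.00051). *psma5*, *psma3* and *psma4* were also higher, by 1.00, 0.90 and 0.84 on the log2 scale, each without overlap. Against MC_WT alone *psma5* was not called (limma adjusted p = 0.081). *psma4* was called there (limma adjusted p = 0.047) but lost the call in 9 fits without a single library. *psma2* (0.12), *psma8* (0.33) and *psma6b* (0.53) overlapped with the melanocytes and did not pass the test.

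The 3 genes with *psma6* names differed in their calls, and the differences between them were not tested. *psma6b* (ENSDARG00000013966) measured 83.6, 87.8, 30.6, 90.0 and 46.7 rescaled CPM in the tumors, 41.9, 42.8 and 33.4 in MC_Het and 47.9, 37.5 and 57.1 in MC_WT. MA3A was below every melanocyte sample and MA3C was among them. Its adjusted p was 0.14, and 0.019 without MA3A. The ratio of *psma6b* to *psma6a* was 0.483 to 1.08 in MA and 1.07 to 1.85 in melanocytes, and these ranges met only between MA3B and MC_WT3. *psma6l* (ENSDARG00000043899), an additional copy, was the only member lower in MA. It measured 94.4, 13.9, 7.68, 22.3 and 16.7 rescaled CPM in MA1, MA2, MA3A, MA3B and MA3C, 28.8, 70.09 and 94.2 in MC_Het and 57.7, 56.4 and 58.9 in MC_WT. MA1 was as high as the highest melanocyte sample, while the other 4 tumors were below all 6 melanocyte samples. The log2 fold change was −1.42 (standard error 0.48, limma adjusted p = 0.022) and −1.94 without MA1, and the call was lost without MA2 (adjusted p = 0.059), without MA3A (0.07) and with edgeR (0.16) or DESeq2 (0.13). How reads shared between these copies were divided is not given in the sources used here.

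The ATPase ring of the 19S particle had smaller differences than the beta ring, with a median log2 fold change of 0.83. Of its 7 genes 4 were higher in MA (23.8% of all genes) and none was lower (27.7%). *psmc6* (ENSDARG00000037038) had the largest change, at 426, 472, 216, 457 and 219 rescaled CPM in the tumors, 136, 182 and 134 in MC_Het and 168, 180 and 194 in MC_WT. MA3A and MA3C lay just above the melanocytes and the other 3 tumors far above them (log2 fold change 1.04, standard error 0.26, limma adjusted p = 0.0033). *psmc1a*, *psmc5* and *psmc2* were higher by 0.98, 0.97 and 0.83 on the log2 scale, without overlap.

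*psmc4* (ENSDARG00000027099) measured 117, 149, 123, 213 and 109 rescaled CPM in the tumors, 93.6, 181 and 135 in MC_Het and 143, 148 and 149 in MC_WT. Tumors and melanocytes overlapped, with MA3B above every melanocyte sample. The fold change was −0.01 on the log2 scale (standard error 0.23, limma adjusted p = 0.98). This value was 0.66 on the CPM as deposited, close to the shift of all genes. *psmc3*, at 0.66 on the log2 scale, did not pass the test (limma adjusted p = 0.13), and its lowest sample was MC_Het1 at 10.4 rescaled CPM. The 2 copies of the gene for the ATPase Rpt2 differed in their calls. *psmc1a* (ENSDARG00000030537) measured 190, 208, 160, 192 and 170 rescaled CPM in the tumors, 77.5, 77.6 and 106 in MC_Het and 85.4, 102 and 113 in MC_WT. *psmc1b* (ENSDARG00000043561) measured 110, 84.3, 42.6, 117 and 63.1 in the tumors, 37.0, 42.6 and 28.3 in MC_Het and 65.8, 69.8 and 57.1 in MC_WT, so that MA3A and MA3C fell within the melanocytes. Its log2 fold change was 0.70 (limma adjusted p = 0.068, and 0.018 without MA3A). The ratio of *psmc1b* to *psmc1a* overlapped between the groups, at 0.267 to 0.607 in MA and 0.267 to 0.770 in melanocytes, and the difference between the copies was not tested.

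Among non-ATPase subunits of the 19S particle 8 of 10 were higher in MA (23.8% of all genes) and none was lower (27.7%). Their median log2 fold change was 0.86. *psmd3* (ENSDARG00000018124), a scaffold subunit of the lid, had the largest change of all members. Its level was 383, 420.2, 419, 396 and 276 rescaled CPM in the tumors, 43.3, 72.1 and 51.8 in MC_Het and 96.7, 81.8 and 93.4 in MC_WT. MA3C was the lowest tumor, and the melanocytes reached no more than 96.7 rescaled CPM. The log2 fold change was 2.40 (standard error 0.24, limma adjusted p = 9e-07). With any single library left out the fold change was between 2.25 and 2.52 on the log2 scale, and its adjusted p was above 1e-6 in each of these fits.

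*psmd8* and *psmd12*, also lid subunits, were higher by 1.64 and 1.61 on the log2 scale without overlap. *psmd8* varied widely among the tumors, with 577 rescaled CPM in MA1 and 162 in MA3C, and *psmd12* had the lowest level per length of the 19S genes in melanocytes. *psmd14* (ENSDARG00000063100), the deubiquitinase of the lid, measured 136, 88.3, 74.7, 70.2 and 80.3 rescaled CPM in the tumors, 42.7, 38.5 and 43.1 in MC_Het and 55.9, 49.5 and 50.01 in MC_WT. All tumors were above all melanocytes, with MA1 well above the other tumors (log2 fold change 0.90, limma adjusted p = 0.0032). *psmd13* (1.09) was higher without overlap, and *psmd1* (0.82) and *psmd6* (0.70) were higher with overlap. The call of *psmd6* was lost without MC_WT2 (limma adjusted p = 0.057), MC_Het1 (0.051) or MA1 (0.065).

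*psmd11a* (ENSDARG00000060150) and *psmd11b* (ENSDARG00000005134) are copies of the gene for a lid subunit. *psmd11a* measured 44.6, 43.2, 44.7, 58.4 and 56.1 rescaled CPM in the tumors, 43.0, 44.7 and 57.3 in MC_Het and 44.1, 47.4 and 71.1 in MC_WT. Its values were nearly the same in all groups (log2 fold change −0.04, standard error 0.21, limma adjusted p = 0.89). *psmd11b* measured 110, 109, 149, 127 and 84.0 in the tumors, 53.3, 81.4 and 54.6 in MC_Het and 68.1, 59.4 and 137 in MC_WT. MC_WT3 was as high as the tumors, and the other melanocytes were below all of them. Its log2 fold change of 0.67 had a limma adjusted p of 0.043, which was between 0.051 and 0.098 in 9 of the fits without a single library. Only without MC_WT3 or MA3C did the call remain. *psmd11b* over *psmd11a* was 1.496 to 3.34 in MA and 0.952 to 1.93 in melanocytes. *psmd4b*, a copy of the gene for the ubiquitin receptor Rpn10, overlapped as well, with a log2 fold change of −0.01.

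Of the 5 genes for assembly chaperones 4 were higher in MA (23.8% of all genes). *psmg2* (ENSDARG00000035987), which acts in assembly of the alpha ring, had the largest change, at 229.95, 174, 128, 223 and 143 rescaled CPM in the tumors, 64.9, 67.3 and 58.6 in MC_Het and 30.7, 37.5 and 30.9 in MC_WT. The 3 groups did not overlap, with MC_Het between MA and MC_WT (log2 fold change of MA over melanocytes 1.91, standard error 0.27, limma adjusted p = 3.3e-05). Its partner *psmg1* was higher by 0.91 on the log2 scale with 1 tumor, MA3A at 48.4 rescaled CPM, among the melanocytes. The chaperones of the 19S base *psmd10* and *psmd5* were higher by 1.14 and 1.75. *psmd5* was at low level and wide spread, at 18.0 ± 5.23 rescaled CPM in MA (SD, n = 5) and 5.91 ± 4.89 in melanocytes (SD, n = 6).

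*psmd9* (ENSDARG00000006300), the remaining base chaperone, measured 19.1, 29.9, 16.5, 39.2 and 15.0 rescaled CPM in the tumors, 25.6, 30.0 and 24.8 in MC_Het and 23.8, 25.7 and 20.1 in MC_WT. The melanocytes lay inside the range of the tumors (log2 fold change −0.14, limma adjusted p = 0.68). *psmf1* (ENSDARG00000022652) encodes PI31, named for its inhibition of the 20S core in vitro. It measured 123, 28.6, 49.5, 64.1 and 51.7 rescaled CPM in the tumors, 22.0, 24.1 and 21.4 in MC_Het and 41.1, 25.3 and 28.8 in MC_WT. MA2 was among the melanocytes and MA1 was the highest sample (log2 fold change 1.07, standard error 0.32, limma adjusted p = 0.011).

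The 3 genes of the name that are not constitutive subunits did not share the increase. *psmb10* (ENSDARG00000043781) measured 93.5, 29.1, 12.2, 13.6 and 15.3 rescaled CPM in MA1, MA2, MA3A, MA3B and MA3C, 15.9, 34.1 and 44.4 in MC_Het and 52.5, 48.9 and 29.6 in MC_WT. MA1 was the highest of all samples, and the 3 tumors of fish MA3 were the lowest. The log2 fold change was −0.55 (limma adjusted p = 0.34), and −1.03 (adjusted p = 0.027) without MA1. *psmc3ip* was low in all groups, at 1.998 ± 0.953 rescaled CPM in MA, 0.802 ± 0.671 in MC_Het and 6.30 ± 3.13 in MC_WT. *psmb11b* was at 0.161 rescaled CPM in MA1, 0.037 in MA3C and 0 in the other 9 samples, and was not tested.

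The 4 interferon-induced subunits left out by the rule were set beside *psma6l* and *psmb10*, since they were also highest in MA1. With the activator genes *psme1* and *psme2*, these 6 genes summed to 237 to 1427 rescaled CPM in MA, 172 to 286 in MC_Het and 583 to 785 in MC_WT, the 1427 being that of MA1. None of the 6 was higher in MA than in the melanocytes of both genotypes together (23.8% of all genes). There 1 (*psme2*, log2 fold change −0.82, limma adjusted p = 0.03) was lower (27.7% of all genes). Over MC_Het alone 4 of the 6 were higher in MA (20.5% of all genes) and none was lower. Over MC_WT alone none was higher and 1 was lower (25.1% of all genes). *psmb8a* measured 364, 45.3, 40.5, 103.6 and 44.2 rescaled CPM in the tumors, 3.38, 1.14 and 0.890 in MC_Het and 201.1, 159 and 158 in MC_WT. MC_Het was far below both other groups. Leukocyte markers were also highest in MA1 among the tumors, and their part in these levels was not tested.

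**Figure D4:**
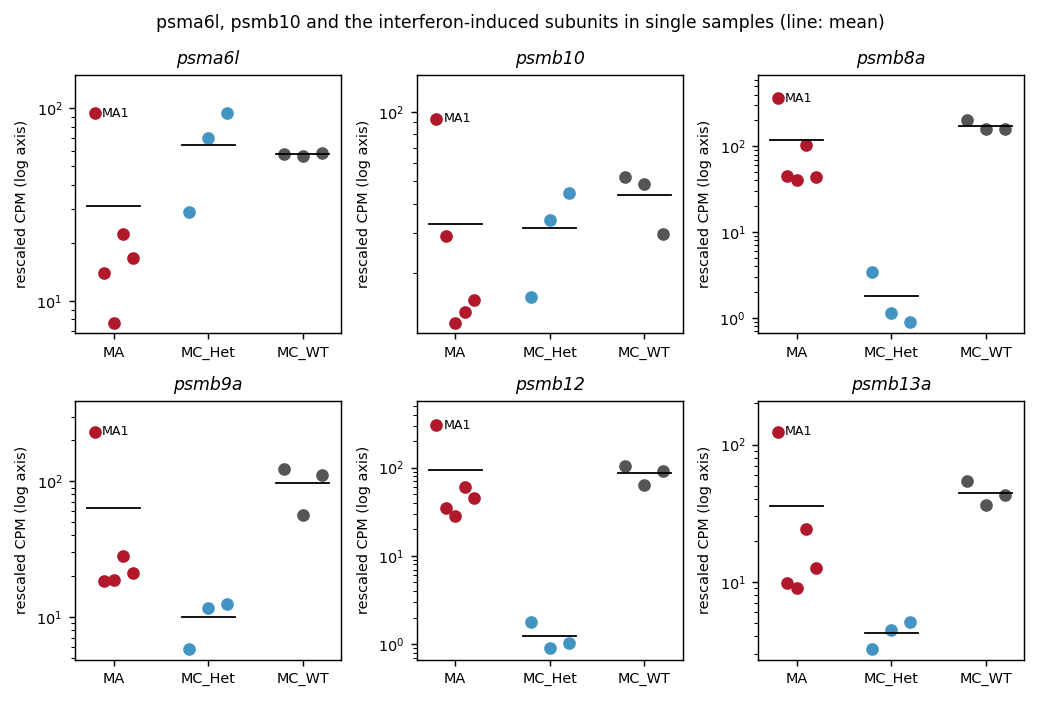
Rescaled CPM (log axes) of *psma6l*, *psmb10* and the interferon-induced *psmb8a*, *psmb9a*, *psmb12* and *psmb13a* in each sample, with the group mean as a line and MA1 marked. MA1 is the highest tumor in all 6 panels, and MC_Het is far below MC_WT in the interferon-induced subunits but not in *psma6l* or *psmb10*.

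Levels of different subunits were compared per length, as rescaled CPM per kilobase of gene length (RPKM). Over the 15 core genes without *psmb10* and *psmb11b*, group means ran in MA from 21.6 RPKM for *psma6l* to 409 for *psmb1*, with *psma3* (391) next. In melanocytes they ran from 30.2 RPKM for *psma6a* to 209 for *psma3*. The 17 genes of the 19S particle ran in MA from 22.1 RPKM (*psmd11a*) to 229 (*psmc6*) and in melanocytes from 10.8 (*psmd12*) to 106 (*psmc6*). *psmc6* was thus first in both cell types. In MA, *psmc6* (229 ± 82.8), *psmd8* (219 ± 115) and *psmd3* (210 ± 33.0 RPKM, SD, n = 5) did not differ beyond their spread.

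The balance between rings, taken as medians over genes, differed as well. The median beta level over the median alpha level within a sample was 1.13, 1.51, 1.61, 1.30 and 1.63 in MA1, MA2, MA3A, MA3B and MA3C, 0.742, 0.664 and 0.796 in MC_Het and 0.664, 0.672 and 0.642 in MC_WT. By these medians over genes, every tumor had more beta than alpha transcript per length and every melanocyte sample less. The alpha median counts *psma6a*, *psma6b* and *psma6l* as separate genes, and the ATPase median does so for *psmc1a* and *psmc1b*. The ratios therefore depend on how copies are counted, and sums over copies were not examined. No gene was listed under *psma1* or *psma7*, so the alpha median lacks them, while the beta median holds *psmb1* to *psmb7*. The beta to ATPase ratio was 2.32 to 3.02 in MA and 0.848 to 1.52 in melanocytes, again without overlap. The ratio of 20S to 19S genes overlapped, at 1.35 to 2.42 in MA, 1.25 to 1.52 in MC_Het and 1.88 to 2.13 in MC_WT, with MC_Het below MC_WT. On CPM in place of RPKM the genotypes overlapped in this ratio, at 0.827 to 1.18 in MC_Het and 0.939 to 1.08 in MC_WT. These ratios are within a library and do not depend on the rescaling. They are transcript levels and were not tested.

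**Figure D5:**
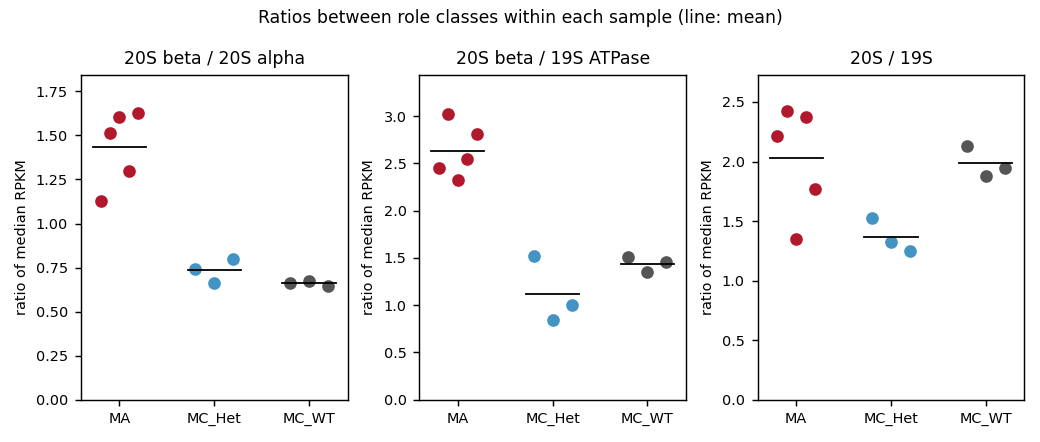
Ratios between the median RPKM of role classes within each sample of MA, MC_Het and MC_WT, with y axes from 0 and group means as lines. Beta over alpha is 1.13 to 1.63 in MA against 0.642 to 0.796 in melanocytes, and the ratio of 20S to 19S overlaps between MA and MC_WT.

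The tumors differed among themselves in the height of the whole set. Relative to the mean of the tumors, the median member was 0.23, 0.17 and 0.16 higher on the log2 scale in MA1, MA2 and MA3B and −0.21 and −0.28 from it in MA3A and MA3C. MA1 held the highest value of 13 members and MA3A the lowest of 17. The 3 tumors of fish MA3 thus covered both sides of the mean. Among the melanocytes MC_Het1 was lowest, at −0.36 from the melanocyte mean, with 4 members above that mean.

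Against each melanocyte genotype alone the direction was the same and the size differed. MA exceeded MC_WT in 24 of 40 members (19.4% of all genes) and was below it in 1, *psmc3ip* (25.1% of all genes), with a median log2 fold change of 0.85 and the largest value for *psmg2* (2.37). MA exceeded MC_Het in 29 of 40 members (20.5% of all genes) and was below it in 0 (25.2% of all genes), with a median of 1.09 and the largest value for *psmd3* (2.76). Without MC_WT2 the count over MC_WT was 15 (16.3% of all genes). With the 3 tumors of fish MA3 averaged it was 20 (16.6%), and with fish as a random block 19 (15.9%). All 24 members higher over MC_WT were also higher over MC_Het, and 36 of 40 had the larger fold change over MC_Het. The 5 called higher over MC_Het and not over MC_WT were *psma5*, *psmc1b*, *psmd11b*, *psmd6* and *psmf1*. Both comparisons share the MA samples. For each member the gap between these fold changes is its fold change of MC_Het over MC_WT. The 36 with the larger fold change over MC_Het are thus the 36 negative between genotypes below, not a separate observation. The beta ring was higher over each genotype in 7 of 7 genes, with medians of 1.32 over MC_WT and 1.91 over MC_Het. Its larger median over MC_Het likewise restates its signs between the genotypes.

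Between the melanocyte genotypes no member passed the test. Of 40 members 0 were higher and 0 lower in MC_Het than in MC_WT at an adjusted p under 0.05, as were 0.353% and 0.161% of the 13044 genes tested in limma. At an unadjusted p under 0.05 there were 10 members (12.6% of all genes), and edgeR and DESeq2 gave 11 each, with 0 after adjustment. The signs nevertheless leaned one way. The log2 fold change of MC_Het over MC_WT was negative in 36 of 40 members, where 50.0% of all genes were negative, and its median was −0.31 over members and 0.00 over all genes. In 15 members every MC_Het sample was below every MC_WT sample (8.95% of all genes), and in 1, *psmg2*, every one was above (9.15%). The members share the same libraries and are not independent of each other. MC_Het1, MC_Het2 and MC_Het3 had 4, 15 and 16 members above the mean of the 6 melanocyte samples, and without MC_Het1 the median was −0.23.

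The smallest p values belonged to *psma5*, *psmc3ip* and *psmg2*. *psma5* (ENSDARG00000003526) measured 68.6, 85.9 and 81.1 rescaled CPM in MC_Het, against 150.5, 124 and 153 in MC_WT. The groups did not overlap, at a fold change of −0.85 on the log2 scale (standard error 0.25, limma adjusted p = 0.2). *psmc3ip* (ENSDARG00000037892) measured 0.0664, 1.38 and 0.958 rescaled CPM in MC_Het and 6.94, 9.06 and 2.90 in MC_WT, a fold change of −1.99 on the log2 scale (standard error 0.58, limma adjusted p = 0.2) at levels near the filter. *psmg2* went the other way, at 64.9, 67.3 and 58.6 in MC_Het and 30.7, 37.5 and 30.9 in MC_WT, with a fold change of 0.93 on the log2 scale (standard error 0.27, limma adjusted p = 0.2). The constitutive beta subunits were all negative, with log2 fold changes of −0.85 to −0.51 and no overlap in 5 of 7 (8.95% of all genes). None of the 7 passed the test (smallest limma adjusted p = 0.27). In the same comparison 4 of the 6 interferon-induced genes were lower in MC_Het (0.161% of all genes). They included *psmb8a* (log2 fold change −6.05, limma adjusted p = 0.00026) and *psmb12* (−5.29, adjusted p = 0.0006). The activator genes *psme1* (−0.40, limma adjusted p = 0.54) and *psme2* (−0.31, adjusted p = 0.74) were not called.

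Genes that act with the proteasome outside this naming were counted in further lists. Of 8 tested partners and activators 5 were higher in MA than in melanocytes (23.8% of all genes) and none was lower (27.7%). They were *shfm1*, which encodes the small lid subunit Sem1 (log2 fold change 1.66), *adrm1*, the ubiquitin receptor Rpn13 (1.41), *usp14*, a deubiquitinase of the 19S particle (1.30), *psme3*, a nuclear activator (0.82), and *pomp*, the chaperone that brings beta subunits into the core (0.75; limma adjusted p = 0.04 for *pomp* and lower for the others). Over MC_WT alone 3 of the 8 were higher (19.4% of all genes), and over MC_Het alone 5 were (20.5%). *psme3* (limma adjusted p = 0.24) and *pomp* (0.19) were not called over MC_WT. *psme4a* was listed at 0 in all samples. Of 10 tested genes for regulators of proteasome transcription 2 were higher, *nfe2l1b* (0.92) and *mafga* (1.99), and 1 was lower, *keap1a* (−0.64). These shares were no larger than the 23.8% and 27.7% of all genes, and the median of the list was −0.16. *mafga* was low, at 3.09 to 9.04 rescaled CPM in MA, 0.362 to 0.950 in MC_WT and 0 in MC_Het. It passed the filter through the tumors alone, so it could be tested only because it was higher in MA. *nfe2l1b*, a zebrafish counterpart of *NFE2L1*, measured 60.6, 50.5, 59.6, 54.8 and 46.4 rescaled CPM in the tumors, 23.8, 30.8 and 19.1 in MC_Het and 44.9, 17.3 and 44.5 in MC_WT. All 5 tumors were above all melanocytes, by a narrow margin over MC_WT1 and MC_WT3 (standard error 0.28, limma adjusted p = 0.012). Its paralog *nfe2l1a* did not pass the test (log2 fold change −0.94, limma adjusted p = 0.074). By genotype, *nfe2l1b* was called higher over MC_Het (limma adjusted p = 0.011) and not over MC_WT (0.091). *nfe2l1a* was called lower over MC_WT (log2 fold change −1.46, limma adjusted p = 0.017) and not over MC_Het (0.49).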

How the data were processed

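RNA-seq of 11 samples of sorted cells was used (MA, n = 5 tumors of 3 fish; MC_Het, n = 3; MC_WT, n = 3). The authors amplified cDNA, mapped single-end reads on GRCz11 by STAR, and deposited CPM per gene and sample along with RPKM. The deposited RPKM are the CPM divided by a fixed gene length. The methods name RSEM on RefSeq genes with DESeq2, while the table lists Ensembl identifiers and 100% of its low values (up to 200 reads) are whole reads within 0.02, so the counter is not known. Whole reads and totals were recovered from these steps. Amplified reads are not independent molecules, so depth bounds counting error only.

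Of 24874 rows, 24441 genes were used once each, since 236 identifiers stand on several rows. The CPM of each sample were divided by its median of ratios. Of these values plus 1 the log2 was fitted by limma 3.58.1 (R 4.3.3, eBayes trend) for the genes that reached 1 CPM in 3 samples or more, and 2-sided p-values were adjusted over all genes tested after Benjamini and Hochberg. Fold changes on this scale understate those of low genes. MA was compared with all melanocytes in a fit of 2 groups, with MC_WT and with MC_Het separately from a fit of the 3 groups, and MC_Het with MC_WT within the 6 melanocyte samples. The fits were tested on simulated counts of independent samples with 200 changed genes. That setting had no tumors sharing a fish and no change across a large part of all genes, so it does not bear on these. Tumors of the same fish were counted as samples, so p-values there partly measure spread within a fish. The labels give the same run for all samples and no batch was modelled.

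The members, role classes, related lists and marker lists were chosen with earlier results of these data known. Sample values were printed for the protease subunits, the highest and lowest fold change of each role class, paralog pairs, the smallest p between genotypes, members that are not constitutive subunits, and members under 1 CPM. Values of *psmd14*, *psmf1*, *psmb8a* and *nfe2l1b* were added after they were seen, and so were group values or fold changes of other members. Alternatives were a pseudocount of 0.1 or 0.5, the deposited CPM or their 75th percentile as scale, a filter at a mean of 5 CPM or none, fits of the recovered reads by edgeR 4.0.16 and by DESeq2 1.42.0, the mean of the MA3 tumors as 1 sample, a random block for fish, a replicate block for the melanocytes, and every library left out in turn. All 41 identifiers were found in a table of current gene names and 35 under the same symbol. By a RefSeq table of another assembly, 8 members overlap another gene (*psmb1*, *psmb10*, *psmc3ip*, *psmd1*, *psmd6*, *psmd8*, *psmd10* and *psmg1*), and reads of such pairs may be mixed. Genome positions and sequences were not used here.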

Additional observations from a re-analysis of the deposited data

Results flagged for a closer look

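In 4 of the 40 tested members a single tumor lay far from the other 4 by Dixon's criterion on rescaled CPM. Chance marks about 1 group in 20 by it where values are independent and normally distributed. Here 3 of the 5 tumors came from fish MA3, so that rate need not apply. *psma6l* was at 94.4 rescaled CPM in MA1 and at 7.68 to 22.3 in the other tumors. *psmb10* was at 93.5 rescaled CPM in MA1 and at 12.2 to 29.1 in the others. *psmd14* was at 136 rescaled CPM in MA1 and at 70.2 to 88.3 in the others. *psmd3* was at 276 rescaled CPM in MA3C and at 383 to 420.2 in the others.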

How the results depend on the processing

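Of the 28 members higher in MA than in melanocytes, 26 were called higher in all 22 other settings, and the others were *psmd11b* and *psmd6*. The median log2 fold change of members was larger on the CPM as deposited, at 1.60 (MA over melanocytes), 1.57 (over MC_WT) and 1.70 (over MC_Het), where 36 members were higher over melanocytes against 42.2% of all genes. The count of members lower in MA, 1 over melanocytes, was 0 on the CPM as deposited, without a filter, with edgeR, with DESeq2, with tumors of fish MA3 averaged and with fish as a random block. Over MC_WT it was 0 in these settings, with either other pseudocount and with the mean of 5 CPM. The strict count of members higher, 1 over melanocytes, was 2 on the CPM as deposited, 8 with DESeq2 and 0 with a pseudocount of 0.1, no filter, edgeR, averaged tumors or the fish block. Over MC_Het it was 12 with DESeq2 and 0 in those same others, and over MC_WT 3 with DESeq2. The shares of all genes at this threshold were not counted in these settings, so a general shift of strict calls cannot be told apart. On CPM in place of RPKM the beta to alpha ratio of melanocytes was 0.554, and the ratio of 20S to 19S was 1.37 in MA and 0.997 in melanocytes, by construction since gene lengths then enter. Signs near 0 turned: *psmb10* was 0.094 on the CPM as deposited, *psmc3ip* 0.20 there and 0.012 at a pseudocount of 0.1, *psmc4* 0.66 there, 0.15 at the 75th percentile and 0.023 with edgeR, *psmd11a* 0.62 and 0.12, and *psmd9* 0.50 and 0.0093 in the first and second of these. The cause was not tested.

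With each library left out in turn, members higher over melanocytes numbered 26 to 29 and lower 0 to 2, with a median of 0.85 to 1.01 and 0 at the strict threshold in each fit. Over MC_WT the counts were 15 (without MC_WT2) to 23 higher and 0 to 2 lower, with a median of 0.80 to 0.88. Over MC_Het they were 20 to 29 higher and 0 to 1 lower, with a median of 1.02 to 1.16 and 0 to 1 at the strict threshold. Of all genes 21.6% to 22.9% were higher over melanocytes in these fits, 13.8% to 20.1% over MC_WT and 16.0% to 20.4% over MC_Het. Fold changes ran from −0.58 to 0.070 for *psmc3ip*, −0.15 to 0.089 for *psmc4*, −0.095 to 0.049 for *psmd11a* and −0.32 to 0.0039 for *psmd9*. For MC_Het against MC_WT the median ran from −0.38 to −0.23 with 0 calls throughout. The replicate block, tried for that comparison, gave 0 calls, a median of −0.31 and 6 members at an unadjusted p under 0.05 against 10 without it. Samples of the same number had correlations of deviations of −0.01, −0.12 and −0.07, and those of different numbers −0.05 to 0.12. These values gave no sign of a pairing by number, and with 3 samples per group they cannot exclude one.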

Other observations

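Other genes of protein quality control were counted in the same fits. Of the 8 genes of the cytosolic chaperonin, a ring that folds actin and tubulin, 6 were higher in MA than in melanocytes and none was lower. Of all genes tested 23.8% were higher. The median log2 fold change was 0.78 against 0.04 over all genes tested. Over MC_WT alone 6 of the 8 were higher (19.4% of all genes), and over MC_Het alone 3 were (20.5%). *tcp1* had the largest change, at 566, 753, 577, 992 and 768 rescaled CPM in the tumors, 203, 302 and 299 in MC_Het and 151, 211 and 164 in MC_WT, a log2 fold change of 1.74 (limma adjusted p = 2.7e-05). All tumors were above all melanocytes. *cct3*, another ring subunit, had a log2 fold change of −0.02 (limma adjusted p = 0.93).

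Of 12 genes for ubiquitin, its activation and delivery of substrates 4 were higher in MA and 3 were lower, shares near those of all genes tested (23.8% higher and 27.7% lower). *uba1*, the ubiquitin-activating enzyme, was higher by 1.56 on the log2 scale (limma adjusted p = 2e-05), as were *rad23ab* (1.79), *ufd1l* (0.86) and the unfoldase *vcp* (0.84). *ubb*, a polyubiquitin gene, was at 19.8, 20.8, 22.4, 10.5 and 17.3 rescaled CPM in the tumors, 45.5, 54.8 and 63.6 in MC_Het and 194, 120.3 and 155 in MC_WT. The 3 groups did not overlap, with MA lowest (log2 fold change of MA over melanocytes −2.31, limma adjusted p = 9.6e-05). *zfand5a* and *zfand5b*, whose mammalian counterpart binds the proteasome, were lower in MA by −1.58 and −1.40 on the log2 scale.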
